A study of Mus musculus with 20 samples.

Results

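The comparison described here set fibro-inflammatory progenitors (FIPs) of mice labelled Mural-Zfp423 transgenic against FIPs of control mice. Its members were the 5 FIP libraries labelled transgenic and the 5 control FIP libraries, chosen by cell type and genotype label alone, and they make up 10 of the 20 libraries of the series. The other 10 libraries hold adipogenic precursor cells (APCs) of the same genotypes. All mice were males of 8 weeks per the labels, were housed at 30 °C and were fed for 1 month on a diet that drew 60% of its energy from fat. Cells came from gonadal white adipose tissue and were sorted without CD45 and CD31 and with PDGFRb; FIPs carried LY6C, whereas APCs carried neither LY6C nor CD9. Each library pooled RNA of 2 mice, and 10 mice were used per genotype. At these numbers the FIP and APC libraries of a genotype must share mice. Mural cells, after which the line is named together with Zfp423, wrap the endothelium of small vessels. The labels used here state neither the promoter that drives the transgene, nor an inducing agent, nor the alleles that the control mice carried.

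FIPs are PDGFRb-expressing stromal cells of visceral fat that make inflammatory and matrix products and that oppose the differentiation of neighbouring adipocyte precursors. ZFP423 is a zinc finger transcription factor known for committing perivascular cells to the adipocyte lineage and for restraining inflammatory gene expression in them. Type I interferon acts through the JAK-STAT pathway on a shared set of antiviral genes, many of which carry an interferon-stimulated response element near their start. The BMP, Notch and Wnt pathways, treated below with the matrix genes, take part in the choice between fibroblast, mural and adipocyte fates.

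Polyadenylated RNA was sequenced, and the values are log2 counts scaled to library size (log2 CPM), in which any CPM of 1 or less is listed as 0. Depth, read from the spacing of the lowest values, was 7.83 to 8.5 megareads in the FIP libraries labelled transgenic and 6.76 to 8.23 megareads in the control FIP libraries. Across genes, any 2 libraries of the same FIP group correlated at r = 0.989 to 0.995. On the first principal component of the 10 FIP libraries, which held 23.8% of the variance, replicates 4 and 5 labelled transgenic stood at 23.39 and 28.76. The other 3 libraries labelled transgenic stood between -1.89 and -1.61, and the controls between -12.77 and -2.92. Values without replicates 4 and 5 are given for the named genes in which they were the highest of their group and for the interferon genes. In the APCs, replicate 1 of each genotype and, by a small margin, replicate 2 of the controls lay nearer to the mean of the other genotype than to their own, whereas all 10 FIP libraries lay nearer to their own.

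Zfp423, the gene named in the line, did not pass the test. It read 5.58, 5.47, 5.53, 5.54 and 5.52 log2 CPM in the 5 FIP libraries labelled transgenic, against 5.47, 5.48, 5.47, 5.63 and 5.30 log2 CPM in the control FIPs. The groups overlapped, and the difference was 0.06 log2 units (limma, adjusted p = 0.933; exact two-sided permutation test over libraries, p = 0.381, n = 5 per group, where the smallest p is 0.00794). The gene spans 87661810 to 87959595 on the minus strand of chromosome 8 (GRCm38). The sources used here do not say whether reads of the transgene fall on the annotated gene, and the libraries are called labelled transgenic throughout. Of the 6 gate genes, 0 were called. Pdgfrb averaged 8.95 ± 0.14 and 8.94 ± 0.07 log2 CPM (SD, n = 5 each) in FIPs labelled transgenic and in control FIPs, Ly6c1 averaged 7.24 ± 0.11 and 7.34 ± 0.05 log2 CPM, and Cd9 averaged 6.60 ± 0.05 and 6.58 ± 0.05 log2 CPM, in the same order. Transcripts of the genes gated against were still measured. Pecam1 (CD31) averaged 6.37 ± 0.24 and 5.98 ± 0.23 log2 CPM and Ptprc (CD45) 3.66 ± 0.45 and 4.21 ± 0.48 log2 CPM in FIPs labelled transgenic and in control FIPs.

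Of 17435 genes tested with limma, which fits all genes together, 65 were called at an adjusted p under 0.05 (0.373%). Of these, 42 were higher in FIPs labelled transgenic (0.241% of genes tested) and 23 were lower (0.132%). Differences exceeded 1 log2 unit for 9 of the higher and 9 of the lower genes. The FIP groups did not overlap for 50 of the 65 genes, and for 503 of all genes (2.89%), of which 382 lay higher (2.19%) and 121 lower (0.694%). At an unadjusted p under 0.05, 1218 genes were higher (6.99%) and 625 were lower (3.58%), and the median difference over all genes was 0.01. The replicate is a pool of mice, and the p-values measure the spread between pools.

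**Figure D1:**
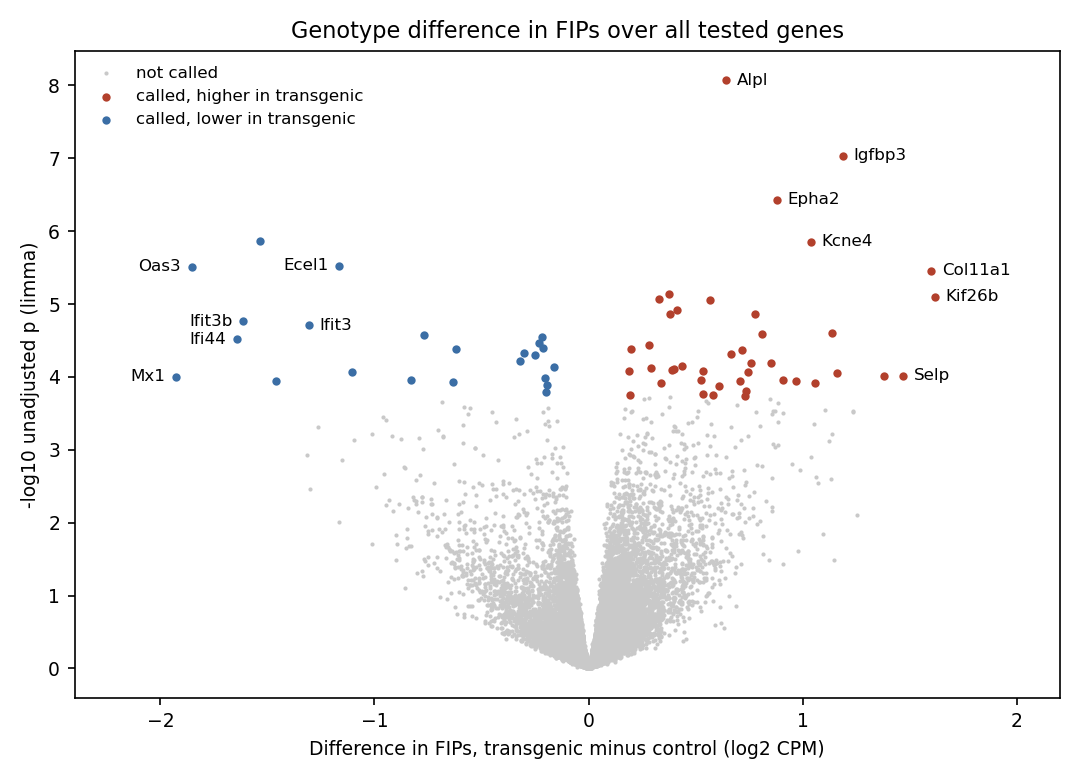
Difference between FIPs labelled transgenic and control FIPs in log2 CPM (horizontal axis) against the -log10 of the unadjusted limma p (vertical axis) for each of the 17435 genes tested. Red points are the 42 genes called higher and blue points the 23 genes called lower; Alpl has the smallest p, and the interferon response genes Oas3, Mx1, Ifit3, Ifit3b and Ifi44 lie among the called genes farthest to the left.

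Members of interferon lists made up 8 of the 23 lower genes, and in all 8 the FIP groups overlapped. Across 6 interferon lists, which hold 141 genes of which 131 could be tested, 8 genes fell in FIPs labelled transgenic, against 0.132% of all genes tested, and 0 rose. These 8 were the RNA-induced synthetase Oas3, the antiviral effectors Ifit3, Ifit3b, Ifi44, Rsad2 and Mx1, the immunity-related GTPase Igtp and the RNA sensor Ifih1. At an unadjusted p under 0.05, 53 members lay lower, the 8 among them, and 1 lay higher, beside 3.58% and 6.99% of all genes. The median difference over the 131 genes was -0.13, beside 0.01 over all genes.

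The promoter windows of the called genes were also described. RefSeq windows (GRCm38.p6), which run 250 bases upstream to 50 bases downstream of a transcript start, were found for 49 of the 65 called genes. They were searched on both strands for GAAA, any 2 bases and GAAA again, the core letters of the interferon-stimulated response element (ISRE). The letters occurred in 6 of the 7 called interferon-list genes with a window, in 7 of 17 lower genes with a window, and in 0 of 32 higher genes with a window. Among all genes with a window, 3.99% held them, and among interferon-list genes 41%. A match is a description of the letters and was not tested as a site. Part of each window is printed below, 5′ to 3′ on the strand of the gene, for the called effectors and sensors, with the matching letters in capitals (TTTC, any 2 bases and TTTC is the same motif read from the other strand).
Oas3, chr5:120777680-120777779, minus strand: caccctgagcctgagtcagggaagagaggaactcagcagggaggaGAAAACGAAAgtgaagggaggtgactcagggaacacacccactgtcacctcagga
Ifit3, chr19:34583328-34583461, plus strand: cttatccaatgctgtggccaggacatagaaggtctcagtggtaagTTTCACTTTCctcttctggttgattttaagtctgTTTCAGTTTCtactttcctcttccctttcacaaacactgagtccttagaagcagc
Rsad2, chr12:26456518-26456617, minus strand: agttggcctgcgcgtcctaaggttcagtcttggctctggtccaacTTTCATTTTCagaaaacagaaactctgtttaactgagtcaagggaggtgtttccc
Igtp, chr11:58199477-58199576, plus strand: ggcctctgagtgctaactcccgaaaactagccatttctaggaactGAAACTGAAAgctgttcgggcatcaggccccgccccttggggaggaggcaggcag
Ifih1, chr2:62646206-62646268, minus strand: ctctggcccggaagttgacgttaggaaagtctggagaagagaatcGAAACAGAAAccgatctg
The stretch of Ifit3b at chr19:34607724-34607857 has the same 134 letters as that of Ifit3. The window of Ifi44 did not hold the letters, and Mx1 had no window. The match in Ifih1 lies downstream of the transcript start.

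Oas3, which makes the second messenger that activates the antiviral nuclease RNase L, had the smallest p of the interferon genes. It read 2.02, 1.88, 2.02, 1.79 and 3.40 log2 CPM in FIPs labelled transgenic, against 3.18, 4.29, 4.19, 4.34 and 4.38 log2 CPM in control FIPs. Replicates 1 to 4 labelled transgenic lay below every control, whereas replicate 5 lay above control replicate 1, so the groups overlapped. The difference was -1.85 log2 units (SE 0.29, limma adjusted p = 0.00759), a ratio of 0.277. Oas3 lies on chromosome 5 at 120753098 to 120777661, minus strand. In the oligoadenylate synthetase list of 13 genes, 9 were tested, 1 was called and 8 lay below 0 (median -0.45). The uncalled paralogs Oasl1 (-1.09, adjusted p = 0.0874) and Oasl2 (-0.42, adjusted p = 0.119, limma) had the smallest p after Oas3.

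Of 44 tested antiviral effectors, 5 fell, 0 rose and 39 lay below 0, with a median of -0.28. Mx1, a dynamin-like GTPase that blocks influenza virus, read 2.14, 1.48, 1.97, 1.39 and 4.11 log2 CPM in FIPs labelled transgenic, against 3.50, 3.97, 4.25, 4.67 and 4.34 log2 CPM in control FIPs. Replicate 5 labelled transgenic again lay within the control range while the other 4 lay below it, and the difference was -1.93 log2 units (SE 0.40, limma adjusted p = 0.0367). Ifit3, a partner of the IFIT complex that binds viral RNA, read 5.66, 5.30, 5.73, 5.40 and 7.14 log2 CPM in FIPs labelled transgenic, against 6.71, 7.27, 7.23, 7.34 and 7.22 log2 CPM in control FIPs. The same library broke the separation, and the difference was -1.31 log2 units (SE 0.24, limma adjusted p = 0.0201). Its neighbour and near-identical copy Ifit3b differed by -1.61 log2 units (adjusted p = 0.0188, limma), and reads of the 2 genes may not have been told apart by the counting.

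Ifi44, an interferon-induced cytoplasmic protein, read 3.61, 2.92, 3.54, 3.79 and 5.13 log2 CPM in FIPs labelled transgenic, against 4.84, 5.56, 5.62, 5.62 and 5.56 log2 CPM in control FIPs (difference -1.64, SE 0.31, limma adjusted p = 0.024). Rsad2 (viperin), an enzyme that makes a chain-terminating nucleotide, read 4.33, 4.26, 4.44, 4.22 and 5.67 log2 CPM in FIPs labelled transgenic, against 5.27, 5.66, 5.83, 5.92 and 5.76 log2 CPM in control FIPs (difference -1.10, SE 0.23, limma adjusted p = 0.0351). In both genes, replicates 1 to 4 labelled transgenic sat together below all controls, and control replicate 1 was the lowest control.

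The interferon-inducible GTPases, which act on the vacuoles of intracellular microbes, included 18 tested genes. Of them 1 fell, 17 lay below 0 and the median was -0.44. Igtp (Irgm3) read 4.88, 4.75, 4.64, 4.52 and 5.41 log2 CPM in FIPs labelled transgenic, against 5.19, 5.47, 5.55, 5.58 and 5.50 log2 CPM in control FIPs, a difference of -0.62 (SE 0.12, limma adjusted p = 0.0266). Replicate 5 labelled transgenic was again the only library of its group inside the control range. Tgtp1 (-0.95, adjusted p = 0.0667) and Tgtp2 (-0.96, adjusted p = 0.0649, limma), which resemble each other closely in sequence, were not called. Gm12250, annotated as a processed pseudogene and outside the lists, was also called lower (-1.46, limma adjusted p = 0.0367). In that annotation it lies at 58187739 to 58189012 on chromosome 11, close to Igtp at 58199556 to 58207591. Its RefSeq promoter window, at 58183593 to 58183892, lies upstream of that span and held the ISRE letters.

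Among 24 tested sensors and transcription factors of the pathway, 1 fell and 0 rose, and the median was -0.05. Ifih1 (MDA5), a sensor of long double-stranded RNA, read 6.23, 6.31, 6.36, 6.25 and 6.61 log2 CPM in FIPs labelled transgenic, against 6.58, 6.71, 6.73, 6.70 and 6.65 log2 CPM in control FIPs, a difference of -0.32 (SE 0.06, limma adjusted p = 0.0331). Dhx58, a regulator of RNA sensing (-0.58), had an adjusted p of 0.0592 in limma and was not called. The interferon receptor and JAK kinase list (13 tested, median -0.03) and the MHC class I and peptide loading list (23 tested, median -0.02) had 0 called genes, and 1 member of each lay lower at an unadjusted p under 0.05. In the MHC class I list that member was the peptide transporter Tap1 (-0.25, adjusted p = 0.2, limma).

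The mean over the 131 interferon genes was 5.49, 5.36, 5.48, 5.38 and 5.80 log2 CPM in the 5 FIP libraries labelled transgenic, against 5.58, 5.84, 5.79, 5.86 and 5.80 log2 CPM in the control FIPs. Replicate 5 labelled transgenic thus stood at the level of control replicates 2 to 5, and control replicate 1 stood between the groups. All 8 called interferon genes had replicate 5 as the highest library labelled transgenic, inside the control range. Among all tested genes that library was the highest of its group in 26.5% and inside the control range in 59.4%. With 1 FIP library left out, 1 to 36 interferon genes were called lower and 0 higher. The count was 36 without replicate 5 labelled transgenic and 17 without control replicate 1. It was 1 without replicate 1 or replicate 4 labelled transgenic or control replicate 4, and 3 or 4 in the other 5 fits. In a limma fit of the 10 FIP libraries alone, 0 of the 8 were called, and Oas3 had the smallest adjusted p, 0.073. Macrophage markers, which lay lower as well, are given below.

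**Figure D2:**
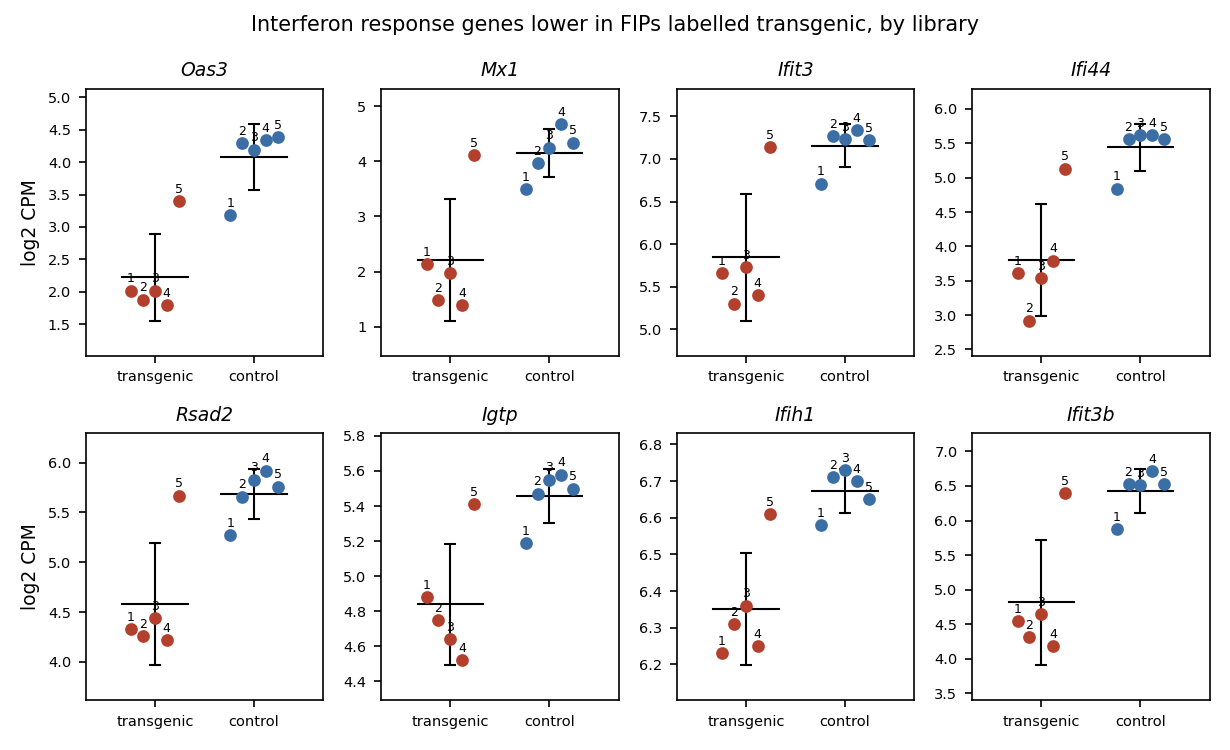
Log2 CPM of the 8 called interferon genes in the 5 FIP libraries labelled transgenic (red, left) and the 5 control FIP libraries (blue, right), each point marked with its replicate number; lines and bars give the mean and SD. In each gene replicate 5 labelled transgenic lies in the control range, and control replicate 1 is the lowest control.

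The higher genes were led by Alpl, Igfbp3 and Epha2, whose groups did not overlap. Alpl, the tissue-nonspecific alkaline phosphatase that releases phosphate during mineralization, read 5.48, 5.32, 5.53, 5.40 and 5.30 log2 CPM in FIPs labelled transgenic, against 4.76, 4.77, 4.57, 4.84 and 4.88 log2 CPM in control FIPs. The 5 libraries labelled transgenic lay close together, all above the highest control. Alpl differed by 0.64 log2 units, or 1.56-fold (SE 0.07, limma adjusted p = 0.000147), and it lies on chromosome 4 at 137741733 to 137796384. Of the 13 tested genes of the mineralization list, Alpl was the 1 called, beside 0.241% of all genes called higher. In that list 12 lay above 0 and the median was 0.05. Of the other 7 listed genes in the table, 6 (Sost, Msx2, Abcc6, Bglap, Sp7 and Ibsp) were listed at 0 in every FIP library.

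Igfbp3, which binds insulin-like growth factors in the extracellular space, read 7.03, 6.92, 6.88, 7.43 and 7.75 log2 CPM in FIPs labelled transgenic, against 5.96, 6.19, 5.73, 6.09 and 6.11 log2 CPM in control FIPs. Replicates 4 and 5 were the highest, but all 5 libraries labelled transgenic lay above every control. The difference was 1.19 log2 units, or 2.28-fold (SE 0.15, limma adjusted p = 0.000797), and 0.93 without replicates 4 and 5 (adjusted p = 0.00109). It was the 1 called gene among 19 tested genes of the insulin-like growth factor list (median 0.09), beside 0.241% of all genes. Stc1, a secreted inhibitor of IGF-binding protein cleavage, differed by 0.78 with no overlap and was not called (limma adjusted p = 0.0592).

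Epha2, a receptor tyrosine kinase for ephrin-A ligands, read 3.96, 3.98, 3.90, 3.88 and 3.57 log2 CPM in FIPs labelled transgenic, against 2.88, 3.32, 3.0, 3.03 and 2.67 log2 CPM in control FIPs. Here replicate 5 was the lowest of its group, yet still above all controls, and the difference was 0.88 log2 units (SE 0.12, limma adjusted p = 0.00214). Promoter windows were searched for other motifs as well, among them TGACGTCA, the cyclic AMP response element. Of the 32 higher genes with a window, 1 (3.12%), Epha2, held these letters, beside 2.03% of all genes with a window. Kcne4, an accessory subunit of potassium channels, read 4.92, 4.56, 4.79, 5.29 and 5.56 log2 CPM in FIPs labelled transgenic, against 4.02, 4.16, 4.02, 3.84 and 3.89 log2 CPM in control FIPs, a difference of 1.04 (SE 0.15, limma adjusted p = 0.00487).

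**Figure D3:**
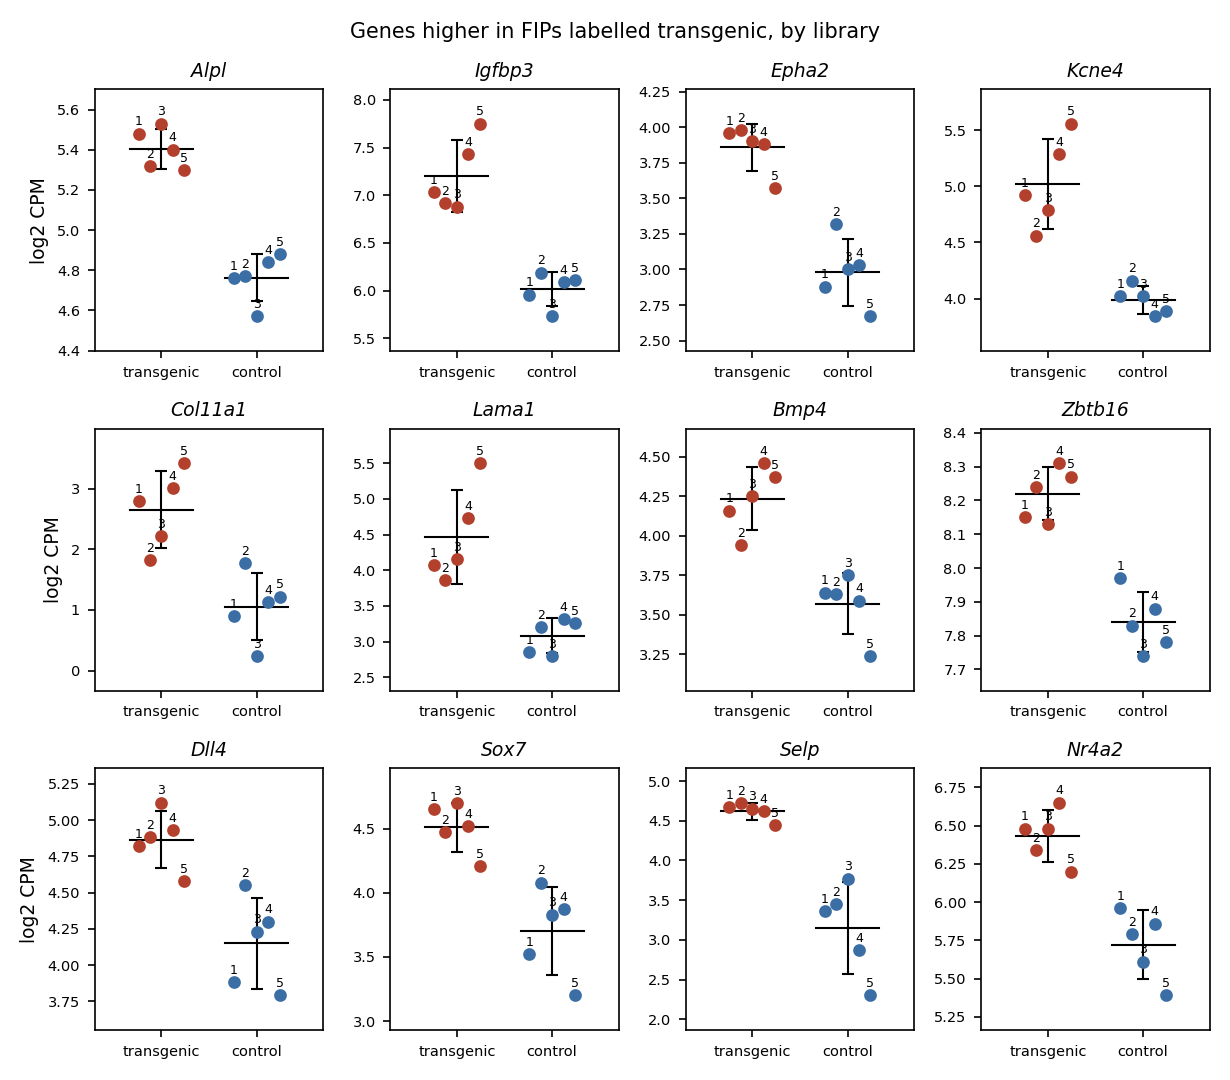
Log2 CPM of 12 genes called higher in FIPs labelled transgenic (red, left) beside control FIPs (blue, right), 5 libraries each and each point marked with its replicate number; lines and bars give the mean and SD. In Igfbp3, Kcne4, Col11a1, Lama1, Bmp4 and Zbtb16 replicates 4 and 5 labelled transgenic are the highest, whereas in Alpl, Epha2, Dll4, Sox7, Selp and Nr4a2 replicate 5 is the lowest of its group.

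In the BMP list, which steers mesenchymal cells toward bone, cartilage and fat fates, 39 genes were tested, 1 rose and 2 fell (median 0.04). Of all genes tested, 0.241% were called higher and 0.132% lower. The ligand Bmp4 read 4.16, 3.94, 4.25, 4.46 and 4.37 log2 CPM in FIPs labelled transgenic, against 3.64, 3.63, 3.75, 3.59 and 3.24 log2 CPM in control FIPs. The groups did not overlap, and Bmp4 differed by 0.67 log2 units (SE 0.13, limma adjusted p = 0.0277). The secreted BMP antagonist Grem1 read 0.74, 0.60, 0.67, 1.42 and 1.61 log2 CPM in FIPs labelled transgenic, against 2.27, 1.72, 1.49, 1.82 and 1.88 log2 CPM in control FIPs, a difference of -0.83 (SE 0.17, limma adjusted p = 0.0367) close to the floor of the table. Smurf1, a ubiquitin ligase that degrades BMP effectors, differed by -0.19 log2 units with no overlap (SE 0.04, limma adjusted p = 0.039). In the TGF-beta list (28 tested, median 0.01) 0 genes were called, and the smallest p belonged to the ligand Tgfb3 (0.27, limma adjusted p = 0.0653).

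In the Notch list, a pathway by which neighbouring cells set mural and endothelial fates, 35 genes were tested, 1 rose and 2 fell (median 0.01). Over all genes tested, 0.241% were called higher and 0.132% lower. The ligand Dll4 read 4.82, 4.88, 5.12, 4.93 and 4.58 log2 CPM in FIPs labelled transgenic, against 3.88, 4.55, 4.23, 4.30 and 3.79 log2 CPM in control FIPs, and differed by 0.72 (SE 0.14, adjusted p = 0.0266 in limma). The receptor Notch2 read 8.27, 8.40, 8.35, 8.37 and 8.38 log2 CPM in FIPs labelled transgenic, against 8.66, 8.55, 8.54, 8.61 and 8.50 log2 CPM in control FIPs, a difference of -0.22 (SE 0.04, limma adjusted p = 0.0233). Rbpj, the DNA-binding effector of Notch, differed by -0.16 (SE 0.03, limma adjusted p = 0.0351). The ligand thus lay on the other side from receptor and effector, in groups that did not overlap for any of these 3 genes. In the Notch list 4 genes lay higher and 3 lower without overlap, beside 2.19% and 0.694% of all genes. Dll4 is best known from tip cells of sprouting endothelium.

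The Wnt list had 50 tested genes, of which 0 rose and 2 fell (median 0.03). The shares over all genes tested were 0.241% called higher and 0.132% called lower. Dact1, a cytoplasmic modulator of Wnt signalling, differed by -0.21 (SE 0.04, limma adjusted p = 0.0367), and Cxxc5, a negative regulator of the pathway, also by -0.21 (SE 0.04, limma adjusted p = 0.0266). Neither gene overlapped between the FIP groups, which held for 0.694% of all genes on the lower side. The receptor Fzd5 differed by 0.30 and was not called (limma adjusted p = 0.0853). In the list of YAP and TAZ targets (28 tested, median 0.03), the tissue factor gene F3 (0.41, limma adjusted p = 0.0157) and the transmembrane protein gene Crim1 (0.29, limma adjusted p = 0.0351) rose, and Flnc, an actin crosslinker, fell by 0.23 (limma adjusted p = 0.0257).

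Calls among the matrix lists were single genes that rose, beside 0.241% of all genes called higher. Of 33 tested collagen genes 1 rose and 0 fell (median -0.02). Col11a1, a minor fibrillar collagen of cartilage, read 2.79, 1.82, 2.22, 3.01 and 3.42 log2 CPM in FIPs labelled transgenic, against 0.90, 1.77, 0.24, 1.13 and 1.22 log2 CPM in control FIPs. The lowest library labelled transgenic lay just above the highest control, and the difference was 1.6 log2 units (SE 0.25, limma adjusted p = 0.00759). Of 22 tested basement membrane genes 1 rose (median -0.04), the laminin chain Lama1, which read 4.07, 3.86, 4.16, 4.73 and 5.50 log2 CPM in FIPs labelled transgenic, against 2.85, 3.20, 2.80, 3.32 and 3.26 log2 CPM in control FIPs. All 5 libraries labelled transgenic lay above the controls, by 1.38 log2 units on average (SE 0.29, limma adjusted p = 0.0366), and by 0.94 without replicates 4 and 5 (adjusted p = 0.172).

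P4ha3, a subunit of collagen prolyl hydroxylase, was the 1 called of 28 tested collagen processing genes (median 0.01), and it differed by 0.85 log2 units (limma adjusted p = 0.0331). Mmp8, a collagenase best known from neutrophils, was the 1 called of 41 tested protease genes (median -0.04) and differed by 1.14 (limma adjusted p = 0.0233). Of 44 tested matrix glycoproteins 0 were called, although 9 lay higher and 3 lower at an unadjusted p under 0.05 (median 0), beside 6.99% and 3.58% of all genes. The largest of the named glycoprotein differences was that of the thrombospondin Thbs4 (1.24, limma adjusted p = 0.0592), whose groups overlapped. Adamtsl2, a microfibril-associated protein outside the lists, rose by 0.61 (limma adjusted p = 0.04), the cell-surface proteoglycan Gpc4 by 0.28 (limma adjusted p = 0.0261), and the tendon and cartilage gene Tnmd by 0.75 near the floor of the table, with overlap.

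Selp, Sox7, Angpt2 and Sema3f were also among the 0.241% of all genes called higher. Selp (P-selectin), the adhesion receptor of activated endothelium and platelets, read 4.67, 4.72, 4.65, 4.62 and 4.44 log2 CPM in FIPs labelled transgenic, against 3.36, 3.45, 3.77, 2.87 and 2.30 log2 CPM in control FIPs. The libraries labelled transgenic lay close together while the controls spread over more than 1 log2 unit, and the difference was 1.47 (SE 0.30, limma adjusted p = 0.0366). Sox7, a transcription factor of endothelial development, read 4.65, 4.47, 4.70, 4.52 and 4.21 log2 CPM in FIPs labelled transgenic, against 3.52, 4.08, 3.83, 3.87 and 3.20 log2 CPM in control FIPs, a difference of 0.81 (SE 0.15, limma adjusted p = 0.0233). Angpt2, a ligand of the endothelial receptor TIE2, was the 1 called of 29 tested genes of the PDGF, FGF and VEGF list (0.76, limma adjusted p = 0.0331; list median 0.14). Sema3f, a guidance factor that restrains vessel growth, rose by 0.53 (limma adjusted p = 0.0486).

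Of 24 endothelial marker genes, all tested, 12 lay higher at an unadjusted p under 0.05, beside 6.99% of all genes. Of these markers 22 lay above 0 with a median of 0.31, and 0 were called. Their summed level was 1529, 1432, 1440, 1321 and 1181 CPM in FIPs labelled transgenic, against 1098, 1347, 1265, 1219 and 1061 CPM in control FIPs, with none of the 24 at 0. Replicate 5 labelled transgenic and control replicate 5 were the lowest of their groups in this sum. They were also the lowest for Selp, Sox7 and Dll4, and likewise for Epha2 and Nr4a2, but not both for Angpt2. Over all tested genes, replicate 5 labelled transgenic was the lowest of its group in 29.7% and control replicate 5 in 22.1%. Among the 42 higher genes the shares were 26.2% and 38.1%. Named members were the phosphatase Ptprb (0.51, limma adjusted p = 0.0592), the receptor Tie1 (0.45, adjusted p = 0.179) and the junction protein Cdh5 (0.34, adjusted p = 0.211). The part of endothelial RNA in the rise of Selp, Sox7, Dll4 and Angpt2 was not tested. In bulk RNA of sorted cells, more cells of a type and more RNA per cell cannot be told apart.

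Mural markers had 22 tested genes, of which 6 lay higher at an unadjusted p under 0.05, beside 6.99% of all genes. Of these markers 15 lay above 0 and 0 were called (median 0.11). Their summed level was 1393 to 1658 CPM in FIPs labelled transgenic, against 1404 to 1503 CPM in control FIPs, and the groups overlapped. Trpc6 and Pln were listed at 0 in all FIP libraries. The contractile actin Acta2 (0.45, limma adjusted p = 0.138), the pericyte regulator Rgs5 (0.46, adjusted p = 0.0981) and the channel subunit Abcc9 (0.40, adjusted p = 0.147) had the smallest p of the list.

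Macrophage markers lay on the lower side, as the interferon genes did. Of 26 marker genes, 16 lay lower at an unadjusted p under 0.05, beside 3.58% of all genes. Of these markers 25 lay below 0 with a median of -0.50, 0 were called, and none was at 0 in all FIP libraries. The summed level was 573, 627, 682, 462 and 366 CPM in FIPs labelled transgenic, against 536, 971, 813, 686 and 698 CPM in control FIPs. Replicate 5 labelled transgenic had the lowest macrophage sum of all 10 libraries. Without it and replicate 4, the macrophage median was -0.21, and 31 interferon genes were called lower. Leaving out replicate 5 alone gave a macrophage median of -0.34 and 36 interferon genes called lower. The part of macrophage RNA in the lower interferon genes was not tested. Named members were the cytoskeletal protein Lcp1 (-0.79, limma adjusted p = 0.15), the protease Ctss (-0.78, adjusted p = 0.212) and the surface receptor Adgre1 (-0.73, adjusted p = 0.215). Lymphoid markers (14 tested, median -0.10) and mesothelial markers (19 tested, median -0.15) had 0 called genes.

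Libraries 4 and 5 labelled transgenic also stood apart in other cell types. The sum of 9 erythroid genes was 508, 517, 591, 342 and 332 CPM in FIPs labelled transgenic, against 481 to 549 CPM in control FIPs. The sum of 32 adipocyte lipid genes was 7831, 7257, 7221, 5839 and 5724 CPM in FIPs labelled transgenic, against 7083 to 7594 CPM in control FIPs. In both lists replicates 4 and 5 lay below every other FIP library, and 0 genes were called (medians -0.21 over 8 tested erythroid genes and -0.14 over the adipocyte genes). Replicates 4 and 5 were also the highest 2 libraries of their group for 21 of the 42 higher genes (50%), against 20% of all genes tested. The part of the erythroid and adipocyte transcripts in these differences was not tested. Without both libraries 67 genes were called, 17 higher and 50 lower, and 28 of the 65 calls were among them. Of the 21 higher genes in which replicates 4 and 5 led, 5 were still called without them and 16 were not. The genes still called were Igfbp3, given above, Kcne4 (0.77, limma adjusted p = 0.0126), Col11a1 (1.23, adjusted p = 0.0344), Kif26b (1.12, adjusted p = 0.0361) and Myo1d (0.42, adjusted p = 0.0464). Among the genes no longer called, Lama1 is given above. Klhl21 differed by 0.34 (limma adjusted p = 0.0536), F3 by 0.29 (0.0563), Trim24 by 0.28 (0.0631), Zbtb16 by 0.33 (0.0746) and Mmp8 by 0.79 (0.0826). P4ha3 differed by 0.61 (limma adjusted p = 0.126), Kng1 by 0.90 (0.139), Bmp4 by 0.55 (0.142), Myo10 by 0.29 (0.163), Asic3 by 0.65 (0.195), Slc40a1 by 0.61 (0.195) and Trib3 by 0.50 (0.211).

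**Figure D4:**
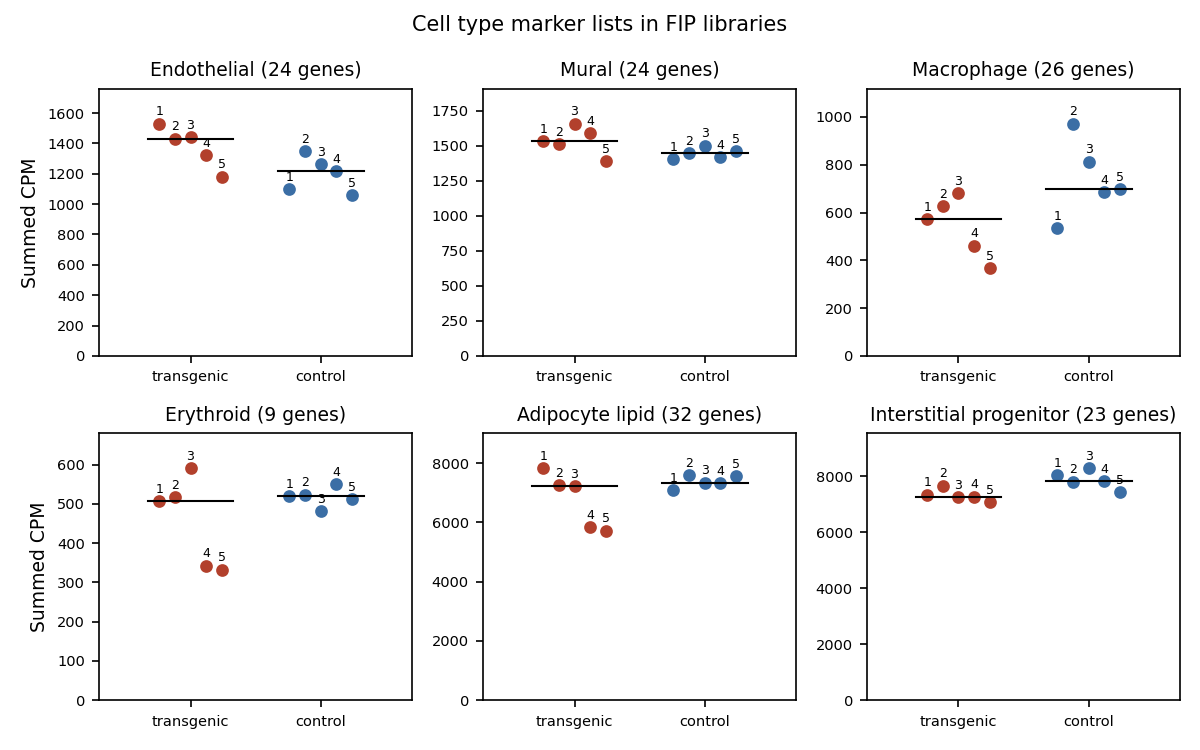
Summed CPM of 6 cell type marker lists in the 5 FIP libraries labelled transgenic (red, left) and the 5 control FIP libraries (blue, right), each point marked with its replicate number; lines give medians. Replicates 4 and 5 labelled transgenic are the lowest libraries in the erythroid and adipocyte sums, and replicate 5 has the lowest macrophage sum, 366 CPM.

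Interstitial progenitor markers, a list that includes the gate gene Ly6c1, were described as well. All 23 were tested, and 5 lay lower at an unadjusted p under 0.05, beside 3.58% of all genes. Of the 23 markers, 21 lay below 0 with a median of -0.10, and 0 were called. The FIP groups did not overlap for 4 markers, all lower, beside 0.694% of all genes. In the fit of the FIP libraries alone, 1 marker was called lower and 9 lay lower at an unadjusted p under 0.05. Their sum was 7083 to 7668 CPM in FIPs labelled transgenic, against 7427 to 8291 CPM in control FIPs. Cd55, a complement regulator and progenitor marker, averaged 8.89 ± 0.04 and 9.07 ± 0.06 log2 CPM (SD, n = 5 each) in FIPs labelled transgenic and in control FIPs, without overlap and without a call (-0.19, limma adjusted p = 0.193). Preadipocyte markers (20 tested, median -0.04) had 0 called genes. Of the 23 listed partners of Zfp423, 0 were called (median -0.01).

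Among transcription factors and stress genes, single members rose, beside 0.241% of all genes called higher. Zbtb16 (PLZF), a glucocorticoid-responsive zinc finger factor, read 8.15, 8.24, 8.13, 8.31 and 8.27 log2 CPM in FIPs labelled transgenic, against 7.97, 7.83, 7.74, 7.88 and 7.78 log2 CPM in control FIPs. The groups did not overlap, and the difference was 0.38 (SE 0.07, limma adjusted p = 0.0157). It was the 1 called gene of 29 tested glucocorticoid targets (median 0.07) and of 27 tested adipogenic transcription factors (median -0.03). Of the glucocorticoid targets, 10 lay higher and 2 lower at an unadjusted p under 0.05, beside 6.99% and 3.58% of all genes. The classical glucocorticoid targets Fkbp5 (0.24, adjusted p = 0.234) and Tsc22d3 (0.17, adjusted p = 0.211) were not called in limma.

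The orphan nuclear receptors Nr4a2 and Nr4a3 are immediate early genes that several stimuli induce within minutes. They were the 2 called of 26 tested immediate early and stress-response genes (median -0.04), and both rose. Of all genes tested, 0.241% were called higher. Nr4a2 read 6.48, 6.34, 6.48, 6.65 and 6.20 log2 CPM in FIPs labelled transgenic, against 5.96, 5.79, 5.61, 5.86 and 5.39 log2 CPM in control FIPs, a difference of 0.71 (SE 0.15, limma adjusted p = 0.0367). Nr4a3 differed by 0.53 (SE 0.11, limma adjusted p = 0.0367), also without overlap. Trib3, a pseudokinase induced by endoplasmic reticulum stress, was the 1 called of 28 tested genes of the unfolded protein response (0.73, limma adjusted p = 0.045; list median 0.05). Slc40a1 (ferroportin), the cellular iron exporter, was the 1 called of 18 tested iron genes (0.91, limma adjusted p = 0.0367; list median 0.02). The heat shock list (15 tested) and the clock list (22 tested) had 0 called genes.

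NF-kB and cytokine genes gave 1 call, a lower one, beside 0.132% of all genes called lower. The kinase gene Ikbkb, which activates NF-kB by marking its inhibitor for degradation, fell by 0.25 (SE 0.05, limma adjusted p = 0.0277), with overlap, among 43 tested components of the pathway (median 0.01). Of 45 tested inflammatory cytokine and acute phase genes 0 were called (median 0). At an unadjusted p under 0.05, 6 of the 45 lay higher and 4 lower, beside 6.99% and 3.58% of all genes. Saa3, an acute phase protein, read 3.74, 3.09, 3.10, 3.22 and 3.33 log2 CPM in FIPs labelled transgenic, against 4.45, 4.49, 4.11, 4.14 and 4.35 log2 CPM in control FIPs. It did not overlap between the groups but was not called (-1.01, limma adjusted p = 0.0826). Complement genes (24 tested, median -0.06) and oxidase and related genes (11 tested, median -0.33) had 0 called genes.

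Metabolic lists held 0 called genes apart from those named. These were the nuclear-encoded respiratory genes (75 tested, median 0.01), cytoplasmic ribosomal proteins (77 tested, 66 above 0, median 0.04), cholesterol synthesis (26 tested, median 0.05), glycolysis (20 tested, median 0.02), NRF2 targets (23 tested, median 0.02) and the cell cycle (36 tested, median -0.05). Among the NRF2 targets, Gclc, the catalytic subunit of glutathione synthesis, missed the threshold narrowly (0.38, limma adjusted p = 0.0503) with no overlap between the groups. Hmox1, the heme-degrading enzyme, differed by 0.38 (adjusted p = 0.125) and Gclm, the partner of Gclc, by 0.23 (adjusted p = 0.119, limma), both without overlap.

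Called genes outside the lists included several of the largest differences. Kif26b, a kinesin-related regulator of cell adhesion, read 2.98, 3.27, 2.95, 4.11 and 4.53 log2 CPM in FIPs labelled transgenic, against 2.23, 1.93, 1.49, 2.17 and 1.93 log2 CPM in control FIPs, and differed by 1.62 (SE 0.27, adjusted p = 0.0127 in limma). The plasma kininogen gene Kng1 rose by 1.16 and the acid-sensing ion channel Asic3 by 1.06. Trim24, a chromatin reader (0.33), Klhl21, a ubiquitin ligase adaptor (0.38), the myosins Myo1d (0.57) and Myo10 (0.44), and Tbl1xr1, a subunit of nuclear receptor corepressor complexes (0.20), rose without overlap. On the lower side, the endopeptidase gene Ecel1 (-1.17), the pseudogene Gm4864 (-1.54) and Cyp3a13 (-0.63) stood near the floor of the table, and Fam167a fell by 0.77 to 3.85 ± 0.21 log2 CPM in FIPs labelled transgenic, against 4.62 ± 0.37 log2 CPM in control FIPs (SD, n = 5 each). Amh, the anti-Mullerian hormone gene, was listed at 0 in 4 of the 5 control FIP libraries and read 0.50 to 1.06 log2 CPM in all 5 FIP libraries labelled transgenic.

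The APCs of the same genotypes were measured to see whether these differences were shared. Of the 65 genes called in FIPs, 9 were also called in APCs, all in the same direction, which is 13.8% of the FIP calls and 0.645% of the 1396 APC calls (8.01% of genes tested; 2.1% higher and 5.91% lower). They were Trim24, Flnc, Alpl, Klhl21, Tbl1xr1, Gm4864, Zbtb16, Bmp4 and Cxxc5. Alpl differed by 0.64 log2 units in FIPs and 0.46 in APCs, and Bmp4 by 0.67 in FIPs and 0.60 in APCs. For 45 of the 65 genes the sign was the same in both populations, and for 63 the difference was larger in size in FIPs, the population in which they were called. The share with the same sign over all genes tested was not computed, and FIP and APC libraries of a genotype must share mice.

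The interaction, which tests whether the genotype difference itself differs between FIPs and APCs, had 0 calls in limma. At an unadjusted p under 0.05 it had 2388 genes (13.7%), among them 47 of the 65. Igfbp3 (1.19 in FIPs and -0.11 in APCs) and Kcne4 (1.04 in FIPs and -0.17 in APCs) had the smallest interaction adjusted p, 0.0669. With the replicate number as a block within genotype, 25 genes passed, of which Igfbp3 was the 1 among the 65 (limma adjusted p = 0.0457), and Kcne4 had an adjusted p of 0.0588. FIP and APC libraries of the same genotype and number correlated at 0.0364 to 0.333 in their deviations from the group means. Those of the same genotype and different numbers correlated at -0.321 to 0.226, and the labels do not say which libraries share mice. Oas3 differed by -1.85 in FIPs and -0.35 in APCs (interaction adjusted p = 0.163), and Mx1 by -1.93 in FIPs and 0.07 in APCs (interaction adjusted p = 0.172). The interaction depended on the APC libraries: without replicate 1 of the APCs of each genotype, 957 genes passed, 20 of the 65 FIP calls among them. Without replicate 5 of the FIPs labelled transgenic 32 genes passed, 10 of the 65 among them.

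**Figure D5:**
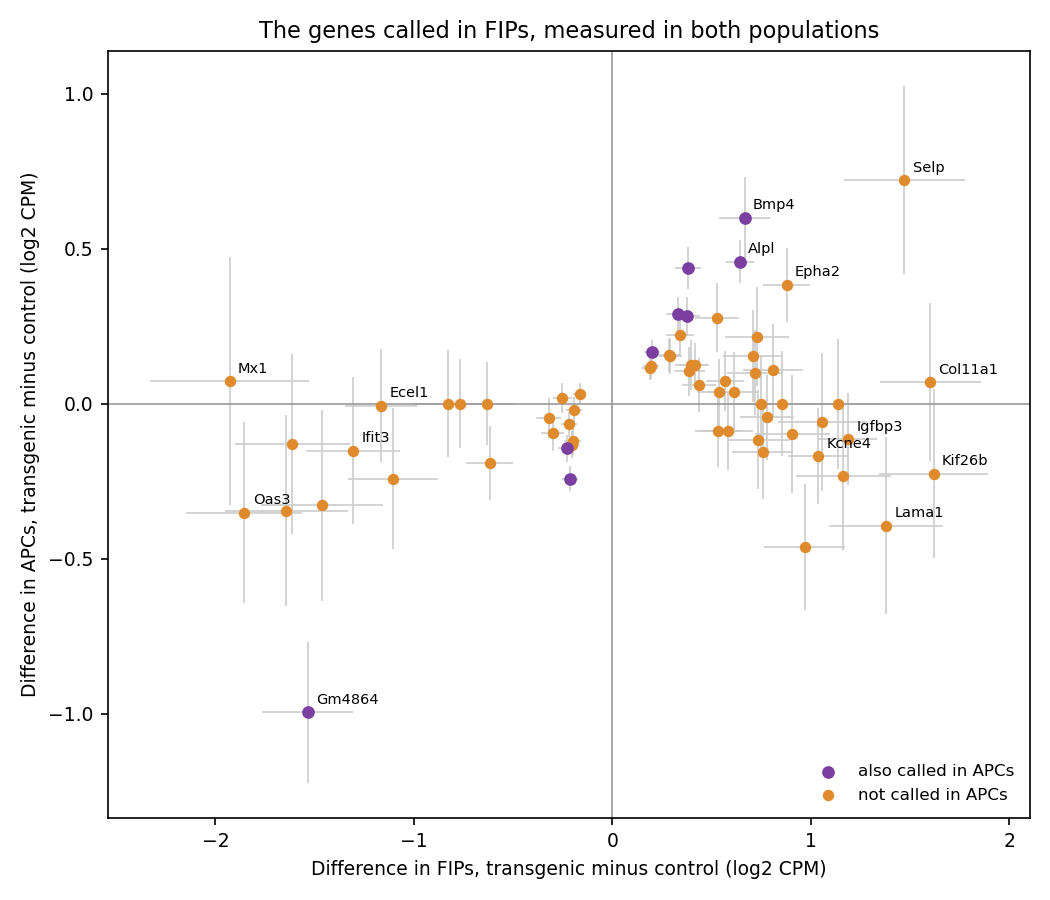
Differences of the 65 genes called in FIPs, labelled transgenic minus control in log2 CPM, measured in FIPs (horizontal axis) and in APCs (vertical axis); bars are standard errors of the limma fit. The 9 genes also called in APCs (purple) lie on the same side in both populations, whereas Igfbp3, Kcne4, Col11a1 and Mx1 lie near 0 in APCs.

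The number of calls depended on single FIP libraries. With each FIP library left out in turn, limma called 18, 54, 35, 9 and 125 genes without replicates 1 to 5 labelled transgenic, and 57, 35, 35, 14 and 27 genes without control replicates 1 to 5. All 65 genes kept their sign in each of these fits. Alpl, Igfbp3, Epha2, Gm4864, Kcne4, Ecel1, Oas3 and Col11a1 were called in all 10 fits, Trim24, Klhl21, Kif26b, Zbtb16 and Myo1d in 9, and 44 of the 65 genes failed in at least 5. The highest adjusted p over the 10 fits was 0.00113 for Alpl, 0.066 for Notch2, 0.0913 for Bmp4, 0.0999 for Selp, 0.104 for Lama1 and 0.112 for Mx1. In a fit of the FIP libraries alone 36 genes were called, of which 17 were among the 65, including Alpl (adjusted p = 0.0206), Igfbp3, Epha2 and Zbtb16 (0.0389 each) and Angpt2 (0.0225).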

How the data were processed

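The deposited table gives log2 CPM for 54304 genes in 20 libraries, to 2 decimals and with CPM of 1 or less as 0. Per the submitters' processing notes, the authors used Trim Galore 0.4.1, HISAT2 2.0.1, featureCounts 1.4.6 and DESeq2 1.6.3 with the mouse genome GRCm38. Which annotation release and strand setting were used is not given in those notes. Low values recovered as whole reads for only 72.2 to 78.6% of values (within 0.0051 log2 units), so no count model was fitted.

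Genes above 0 in at least 5 libraries (17435) were fitted in limma 3.58.1 (R 4.3.3) with 1 mean per group over all 20 libraries, a trend of variance with level, Benjamini-Hochberg adjustment at 0.05 and 16 residual degrees of freedom. APC libraries thus share in the estimate of the spread. The fit was also run on simulated data in which noise was drawn independently for each gene and library. Such data hold no outlying library and no shared mice, so they do not measure how stable the calls are. Folds are powers of 2 of differences in mean log2 CPM and understate changes of genes near the floor.

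The comparison and the 49 gene lists were chosen with earlier results of these data known, and the lists are described by counts and medians. The genes named are, by rule, the gate genes and Zfp423, called genes with the smallest adjusted p or the largest differences (up to 15 per direction, a level of 2 log2 CPM or more where higher, no overlap, predicted genes excluded), called list members, and up to 3 members per list with the smallest p. Called genes outside this rule, such as Gm12250, Gm4864, Ecel1, Amh, Tnmd and Cyp3a13, were added after their values were seen. Some that met it are left out of the text but kept in all counts. Names and coordinates come from GENCODE M21, which matched 54276 genes, and promoter windows from RefSeq. Alternatives were log2(CPM + 1), no filter or a filter of 10 libraries, median centring, quantile normalization, FIP libraries only, the replicate number as a block and each FIP library left out. Leaving out replicate 1 of the APCs, or replicates 4 and 5 of the FIPs labelled transgenic, was chosen after seeing the data.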

Additional observations from a re-analysis of the deposited data

Results flagged for a closer look

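Single libraries stood apart from the other 4 of their FIP group in 23 of 210 groups tested, over 105 genes, by Dixon's ratio at a critical value of 0.71. A rate of about 1 in 20 groups would give 10.5 if the groups were independent. The genes were named partly for their small p, and interferon genes recur among them, so no excess can be read from the count. Replicate 5 labelled transgenic accounted for 10 of the 23. Among FIPs labelled transgenic, it read 3.40 log2 CPM for Oas3, 6.40 for Ifit3b, 7.14 for Ifit3, 5.67 for Rsad2, 4.11 for Mx1, 3.73 for Gm12250, 4.62 for Oasl1 and 7.10 for Oasl2, each above the other 4 libraries. It read 6.26 log2 CPM for Acta2, also above the others, and 3.57 for Epha2, below them. Replicate 1 labelled transgenic read 8.98 log2 CPM for Flnc, below the other 4, and 7.08 for Hmox1, above them, and replicate 2 read 3.54 for Stc2, below them.

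Among the control FIPs, replicate 1 was the low library for Oas3 (3.18 log2 CPM), Ifit3b (5.88), Ifit3 (6.71), Ifi44 (4.84) and Igtp (5.19). It was the 1 control above 0 for Amh (0.27). Control replicate 3 was low for Mmp8 (0.24 log2 CPM), and control replicate 5 was low for Tgif1 (5.81), Abcc9 (4.18) and Fbln1 (7.95).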

How the results depend on the processing

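Against 65 calls in FIPs, there were 65 with log2(CPM + 1), of which 53 were among the original 65, 48 without a filter (44 shared), 61 with the stricter filter (60 shared), 52 with median centring (44 shared) and 97 with quantile normalization (58 shared). The share of higher calls was 64.6%, and 51.9% with centring and 53.6% with quantile normalization. The fit of FIP libraries alone gave 36 calls (17 shared), and the one without replicate 1 of the APCs 126, which held all 65. With the replicate number as a block in FIPs there were 0 calls in limma (2304 genes at an unadjusted p under 0.05). Same-numbered libraries of the FIP groups correlated at -0.006 to 0.113 in their deviations, and differently numbered ones at -0.108 to 0.0985. Whether the numbers pair them was not tested. With 1 FIP library left out, calls numbered 9 to 125. Interaction calls, 0 in the fit reported, were 3 with log2(CPM + 1), 1 with quantile normalization, 25 with the replicate block within genotype, 957 without replicate 1 of the APCs, 12 without replicates 4 and 5 of the FIPs labelled transgenic, and 0 to 32 with 1 FIP library left out. The cause was not tested. Zfp423 differed by 0.02 to 0.10 in every alternative and was never called. All 65 genes kept their sign in each alternative, except that 2 were not tested under the stricter filter. Small uncalled differences changed sign: Cd9 (-0.002) and Pdgfrb (-0.008) with centring, Pdgfrb (-0.076) and Ly6c2 (0.00067) without replicates 4 and 5 labelled transgenic, and Pdgfrb with 1 library left out (-0.021 to 0.054, below 0 in 3 fits). At the depth of these libraries, 1 CPM is under 10 reads, and genes listed at 0 can be expressed below that floor.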
